A study of Homo sapiens with 8 samples.

Results

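The 9 genes described here carry out or control MHC class I antigen presentation: the heavy chain genes HLA-B, HLA-C, HLA-E and HLA-F, the light chain gene B2M, the peptide transporter genes TAP1 and TAP2, the tapasin gene TAPBP, and the transactivator gene NLRC5. They were chosen by symbol from the table of gene counts, 9 of 60622 genes, and all 9 passed the filter on low counts that left 21066 genes to test. RNA was measured in human prostate cancer cells of the lines LNCaP, from a lymph node metastasis, and PC3, from a bone metastasis. The groups were LNCaP with miR-375 overexpressed, LNCaP control, PC3 with miR-375 overexpressed and PC3 control, each with 2 libraries. LNCaP cells grew in RPMI-1640 with 10% fetal bovine serum and PC3 cells in the same medium with 20%, so that line and serum cannot be told apart. The labels give neither the means nor the duration of overexpression, nor what was done to the controls.

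MHC class I molecules show fragments of a cell's own proteins to CD8 T cells. The proteasome cuts proteins into peptides, TAP1 and TAP2 together carry the peptides into the endoplasmic reticulum, and tapasin holds an empty heavy chain with beta-2 microglobulin beside the transporter until a peptide fits. HLA-B and HLA-C are classical, highly polymorphic heavy chains, while HLA-E and HLA-F are non-classical ones that vary little, and HLA-E is read mainly by receptors of natural killer cells. NLRC5 is drawn to class I promoters by the RFX factors, and interferon gamma raises the whole set, in part through IRF1. Low expression of class I genes is a known feature of many prostate cancers.

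The overexpressed microRNA is shown first because its seed, bases 2 to 8, fixes the letters of its possible target sites. The sequence is that of RefSeq (GRCh38.p14, chr2:219001648-219001669, minus strand), with the seed in capitals.

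miR-375-3p: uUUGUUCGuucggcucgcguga

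The 3′ untranslated regions of the 9 genes were searched for the complement of this seed, with 1 transcript per gene from GENCODE 29. The full 7-base match CGAACAA was found in 0 of the 9 genes, against 0.921% of 19102 protein-coding genes. The match GAACAAA, to seed bases 2 to 7 followed by an A, was found in 0 of the 9 genes, against 12.5% of genes. The 6-base match GAACAA was found in NLRC5 alone, against 25.4% of genes. At a share of 0.921%, 0 matches is the likely outcome for any 9 genes. The regions searched ran from 121 bases in HLA-F to 3445 in TAP2, and the shares of all genes were not matched for length. These counts therefore do not set the 9 genes apart. Such a match is a string of letters and not a measured site.

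The promoters are shown because 7 of the 9 genes rose in both lines and because class I promoters are known to share short elements. RefSeq promoter windows (GRCh38.p14, 250 bases before to 50 after the start) were matched for 7 of the 9 genes, with HLA-E and NLRC5 not among them. The 250 bases before the start are printed for 5 genes on the strand of the gene, and capitals mark every match, on either strand, to the elements named after them. HLA-B lies at chr6:31357180-31357429 on the minus strand, B2M at chr15:44711267-44711516 on the plus strand, TAP1 at chr6:32853705-32853954, TAP2 at chr6:32838740-32838989 and TAPBP at chr6:33314079-33314328, all 3 on the minus strand.

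HLA-B: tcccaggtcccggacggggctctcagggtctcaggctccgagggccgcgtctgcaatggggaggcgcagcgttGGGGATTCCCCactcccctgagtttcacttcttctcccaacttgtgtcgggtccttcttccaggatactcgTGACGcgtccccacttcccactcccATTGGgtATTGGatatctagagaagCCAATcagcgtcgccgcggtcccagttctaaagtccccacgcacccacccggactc

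B2M: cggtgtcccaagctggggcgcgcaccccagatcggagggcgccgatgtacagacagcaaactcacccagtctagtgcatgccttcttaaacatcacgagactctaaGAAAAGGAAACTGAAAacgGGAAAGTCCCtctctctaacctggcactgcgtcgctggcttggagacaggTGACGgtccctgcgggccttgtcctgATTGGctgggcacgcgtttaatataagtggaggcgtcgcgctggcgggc

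TAP1: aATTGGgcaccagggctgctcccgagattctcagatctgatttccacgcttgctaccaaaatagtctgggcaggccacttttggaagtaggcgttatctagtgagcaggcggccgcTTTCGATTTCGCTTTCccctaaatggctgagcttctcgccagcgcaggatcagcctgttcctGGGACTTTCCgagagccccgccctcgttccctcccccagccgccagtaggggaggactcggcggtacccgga

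TAP2: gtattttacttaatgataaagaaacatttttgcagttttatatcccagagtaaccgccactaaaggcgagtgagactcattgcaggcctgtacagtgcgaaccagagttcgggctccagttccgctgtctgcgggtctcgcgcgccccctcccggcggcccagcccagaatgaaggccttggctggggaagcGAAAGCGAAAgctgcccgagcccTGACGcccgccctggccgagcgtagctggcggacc

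TAPBP: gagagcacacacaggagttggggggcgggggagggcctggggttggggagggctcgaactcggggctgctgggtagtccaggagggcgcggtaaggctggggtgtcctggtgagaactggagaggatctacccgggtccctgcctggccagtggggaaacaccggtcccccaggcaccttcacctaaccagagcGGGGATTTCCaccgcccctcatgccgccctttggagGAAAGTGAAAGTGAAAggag

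The interferon-stimulated response element, searched as GAAA, any 2 bases and GAAA again, was matched in 5 of the 7 windows (HLA-F, B2M, TAP1, TAP2 and TAPBP), against 3.58% of 35097 RefSeq promoter windows. In B2M, TAP1 and TAPBP it was matched at a pair of overlapping places. Looser forms of the element were not searched, so HLA-B and HLA-C cannot be said to lack it. HLA-B and HLA-C, without a match, were called higher with miR-375 in both lines. Among the 5 matched genes HLA-F was called lower in LNCaP and TAP2 lower in PC3, calls that other settings did not all keep. A link between matches and changes was not tested. The NF-kB element was matched in HLA-B, HLA-C, B2M, TAP1 and TAPBP, also 5 of 7, against 11.3% of windows, and the pair of matches in HLA-B overlap. TAP1 has a further NF-kB match just after its start, beyond the bases printed. CCAAT, which in class I promoters forms the Y box bound by NF-Y, was matched in 5 of 7 windows, against 34.6%. TGACG, the core of the X2 box bound by CREB and ATF factors, was matched in 4 of 7, against 24.5%. In the HLA-B window TGACG is followed by ATTGG, which is CCAAT on the other strand, in the order of the X2 and Y boxes. The gamma-activated site, searched as TTCNNNGAA, was matched in 0 of the 7 windows, against 7.66%. These matches describe letters in the reference genome, and binding was not measured.

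Library totals ran from 33973861 to 41890528 counts. Levels below are TMM-scaled CPM, that is, counts divided by a scaled library size, and both library values or the mean ± SD (n = 2) are given. Changes are on the log2 scale, miR-375 over control, ± SE. They come from the quasi-likelihood test of edgeR, adjusted by Benjamini-Hochberg over all 21066 genes, and a gene was called under an adjusted p of 0.05. Nothing in the labels ties the 2 libraries of a group to separate cultures, and the spread behind each p-value may thus be technical. MIR375 itself had 0 counts in all 8 libraries, which allows up to 0.0883 CPM by library totals. Mature microRNAs have no poly(A) tail and escape such libraries, so the gene is no check of the overexpression. All 8 LNCaP markers were higher in LNCaP controls than in PC3 controls, and 7 of 8 PC3 markers were lower, with KRT5 the exception at under 1 CPM in every library. Of 10 leukocyte markers, CD2 and MS4A1 were at 0 in all libraries, and the 10 together summed to between 1.38 and 1.57 CPM in LNCaP with miR-375, 0.773 and 0.936 in LNCaP control, 2.25 and 2.60 in PC3 with miR-375, and 1.47 and 2.08 in PC3 control. These sums were higher with miR-375 in both lines, like the class I genes, although 0 of the 4 tested leukocyte markers were called in LNCaP and 1, CD53, in PC3. The LNCaP markers summed to between 4585 and 4715 CPM in LNCaP with miR-375, against 5965 and 5982 in LNCaP control. Of these 8 markers, 1 (FOLH1) rose and 4 fell there. The PC3 markers summed to between 1741 and 1753 CPM in PC3 with miR-375, against 2193 and 2211 in PC3 control. Of these 8, 5 fell and 2 rose, CXCL8 by 1.27 ± 0.035 and IL6 by 1.90 ± 0.21 on the log2 scale. The sums thus do not stand for each marker. Of 10 tested fibroblast and endothelial markers, 1 rose and 0 fell in LNCaP, and 4 rose and 2 fell in PC3. The part of any of these in the class I changes was not tested. These are bulk samples, in which fewer cells of a type and less RNA per cell cannot be told apart.

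With miR-375, 7 of the 9 genes rose in LNCaP and 8 rose in PC3. HLA-F fell and TAP2 was not called in LNCaP, and TAP2 alone fell in PC3. Over all tested genes, 13.9% were called higher and 18.7% lower in LNCaP, and 22.2% higher and 20.8% lower in PC3. The median log2 change of the 9 genes was 0.37 in LNCaP and 0.79 in PC3, beside medians of 0.00 and 0.02 over all tested genes. With library totals in place of TMM the median of all genes moved to 0.12 in LNCaP and to 0.10 in PC3, and the calls in LNCaP shifted to 4717 higher and 2614 lower, beside 2927 and 3933 under TMM. The rises of HLA-B, HLA-C, HLA-E, B2M, TAP1 and TAPBP passed the test in both lines under all 16 other settings tried.

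Read as a share of the library, the 9 genes took 0.0777% and 0.0767% of counts in LNCaP with miR-375, against 0.0581% and 0.0554% in LNCaP control. In PC3 they took 0.350% and 0.353% with miR-375, against 0.180% and 0.178% in control. The miR-375 libraries stood above the controls in both lines. Gene by gene, the libraries did not overlap for any of the 9. In LNCaP both miR-375 libraries were above both controls for 7 genes and below them for 2, beside 31.1% and 31.8% of all tested genes. In PC3 they were above for 8 genes and below for 1, beside 35.2% and 31.6%.

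**Figure D1:**
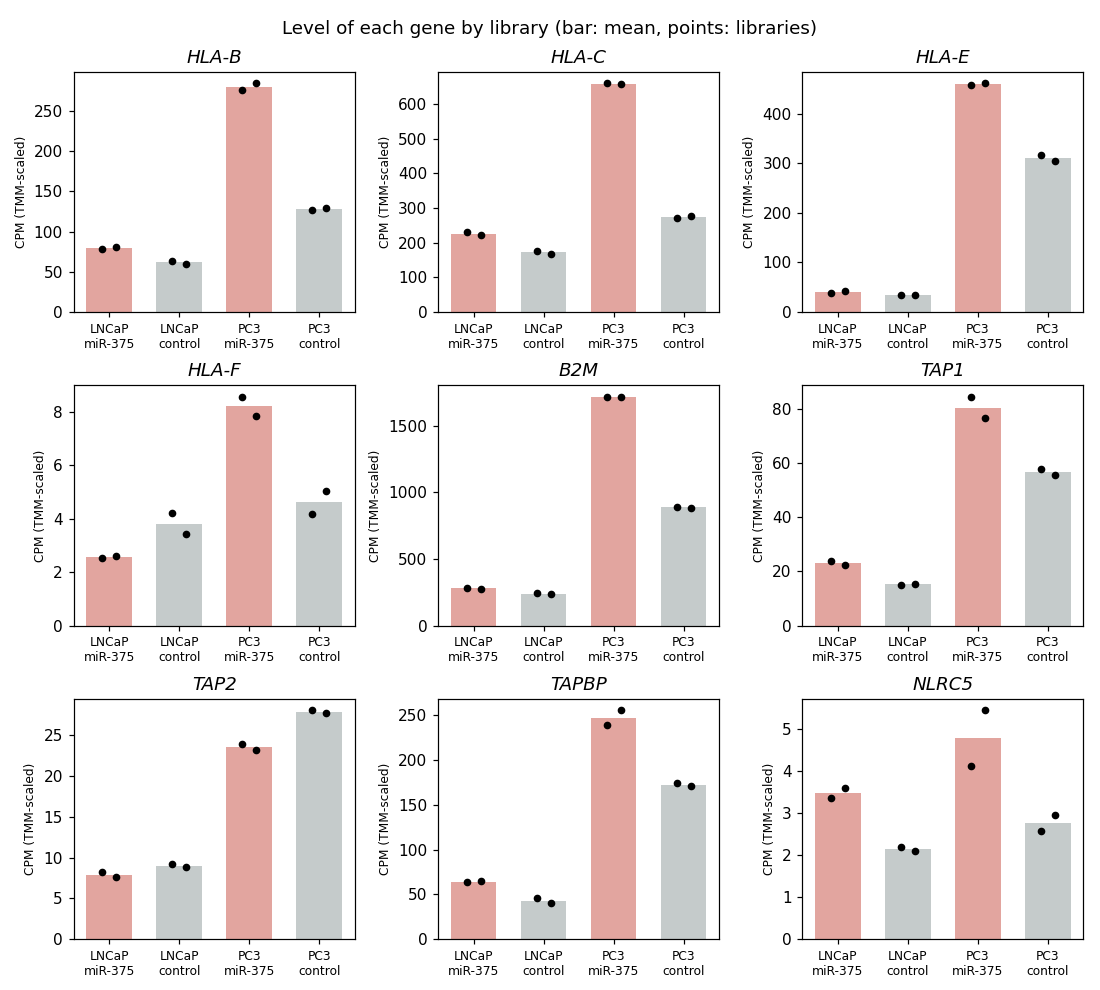
Level of each of the 9 genes in TMM-scaled CPM (vertical axis, from 0, a scale of its own in each panel) in the 4 groups, with bars for the mean of 2 libraries and points for the libraries. In PC3 every gene except TAP2 stands higher with miR-375 than in control, and B2M reaches 1717 and 1716 CPM with miR-375.

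HLA-C (chr6:31268749-31272130, minus strand, GRCh38), a classical chain, had the largest change of the 9 genes in PC3. It stood at 660.3 and 657.9 CPM in PC3 with miR-375, against 272.7 and 277.1 CPM in PC3 control, a 2.40-fold rise (log2 1.26 ± 0.04, adjusted p = 4.14e-26, edgeR). In LNCaP it stood at 230.1 and 221.4 CPM with miR-375, against 176.9 and 167.8 CPM in control, a 1.31-fold rise (log2 0.39 ± 0.04, adjusted p = 7.13e-11, edgeR). Both miR-375 libraries were above both controls in each line.

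HLA-B (chr6:31269491-31357188, minus strand), the other classical chain here, moved by similar amounts. Its level was 276.4 and 284.6 CPM in PC3 with miR-375, against 127.0 and 129.6 CPM in PC3 control, 2.19-fold higher (log2 1.13 ± 0.04, adjusted p = 9.71e-23, edgeR). In LNCaP it was 78.8 and 80.6 CPM with miR-375, against 63.6 and 59.9 CPM in control, 1.29-fold higher (log2 0.37 ± 0.05, adjusted p = 4.18e-08, edgeR). The groups did not overlap in either line. The annotated span of HLA-B overlaps most of that of HLA-C on the same strand, classical heavy chains are near-identical over long stretches, and the hg38 reference holds a single allele of each. The split of reads between HLA-B, HLA-C and their relatives is therefore uncertain, and levels compared between the lines, which may carry different alleles, are more so.

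HLA-E (chr6:30489467-30494205, plus strand), which presents leader peptides of other class I chains, rose less. It had 458.7 and 461.2 CPM in PC3 with miR-375, against 317.1 and 304.2 CPM in PC3 control, 1.48-fold higher (log2 0.57 ± 0.04, adjusted p = 2.99e-15, edgeR). In LNCaP it had 39.1 and 42.4 CPM with miR-375, against 34.1 and 34.2 CPM in control, 1.20-fold higher (log2 0.26 ± 0.05, adjusted p = 0.000109, edgeR). The groups did not overlap in either line.

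HLA-F (chr6:29722775-29738528, plus strand), a non-classical chain that can reach the cell surface without peptide, had opposite signs in the lines. It stood at 8.57 and 7.85 CPM in PC3 with miR-375, against 4.19 and 5.03 CPM in PC3 control (log2 0.83 ± 0.18, adjusted p = 0.000257, edgeR). In LNCaP it stood at 2.55 and 2.60 CPM with miR-375, against 4.20 and 3.44 CPM in control (log2 −0.57 ± 0.21, adjusted p = 0.0369, edgeR). The LNCaP values rest on 94 and 94 counts with miR-375, against 139 and 120 in control. That call was lost in 8 of 16 other settings, with adjusted p up to 0.338 and a log2 change of −0.37 without the first LNCaP control library, and it was also lost without either LNCaP miR-375 library. An antisense gene, HLA-F-AS1, overlaps HLA-F with up to 183 counts in a library, and the strand setting of the counting is not given, so reads of the pair cannot be told apart.

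B2M (chr15:44711487-44718877, plus strand) encodes beta-2 microglobulin, the light chain shared by every class I molecule. Its level nearly doubled in PC3, to 1717 and 1716 CPM with miR-375, against 892.4 and 883.9 CPM in control (1.93-fold, log2 0.95 ± 0.03, adjusted p = 8.27e-24, edgeR). In LNCaP the rise was 1.16-fold, with 283.9 and 275.8 CPM with miR-375, against 246.7 and 234.3 CPM in control (log2 0.22 ± 0.03, adjusted p = 1.9e-06, edgeR). B2M had the smallest called rise of the 9 genes in LNCaP and the third largest in PC3.

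The summed CPM of the 4 heavy chains, divided by that of B2M in the same library, was 1.24 and 1.26 in LNCaP with miR-375, against 1.13 and 1.13 in LNCaP control. In PC3 it was 0.818 and 0.822 with miR-375, against 0.808 and 0.810 in control. The miR-375 libraries were higher in both lines, by a wider margin in LNCaP, and this ratio is not adjusted for length and was not tested.

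TAP1 and TAP2, the paired subunits of the peptide transporter, differed: TAP1 was called higher in both lines and TAP2 in neither. TAP1 (chr6:32845209-32853978, minus strand) stood at 23.9 and 22.2 CPM in LNCaP with miR-375, against 15.1 and 15.4 CPM in control, 1.51-fold higher (log2 0.59 ± 0.08, adjusted p = 1.61e-07, edgeR). In PC3 it stood at 84.5 and 76.5 CPM with miR-375, against 57.9 and 55.4 CPM in control, 1.42-fold higher (log2 0.51 ± 0.06, adjusted p = 2.1e-08, edgeR). All 4 miR-375 libraries were above the controls of their line.

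TAP2 (chr6:32821833-32838780, minus strand) was at 8.18 and 7.64 CPM in LNCaP with miR-375, against 9.21 and 8.79 CPM in control, a log2 difference of −0.19 ± 0.12 that did not pass (adjusted p = 0.257, edgeR). In PC3 it was at 23.9 and 23.2 CPM with miR-375, against 28.1 and 27.8 CPM in control, 0.842 times the control level (log2 −0.25 ± 0.10, adjusted p = 0.0331, edgeR). The PC3 call was lost in 6 of 16 other settings, among them the omission of any single PC3 library, with adjusted p between 0.0772 and 0.144 for those. Its direction was the same in all of them.

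The ratio of TAP1 to TAP2 CPM within a library was 2.92 and 2.91 in LNCaP with miR-375, against 1.64 and 1.75 in control. It was 3.54 and 3.30 in PC3 with miR-375, against 2.06 and 2.00 in control. The ratio was higher with miR-375 in all 4 libraries, which shows unequal change of the pair and not that either gene stood still. TAP1 shares its promoter region with the immunoproteasome gene PSMB9 on the other strand, their RefSeq starts being 488 bases apart, and the annotated genes overlap. PSMB9 reached at most 440 counts in a library.

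TAPBP (chr6:33299694-33314387, minus strand) encodes tapasin, which bridges the transporter and the empty class I molecule. It stood at 63.5 and 64.6 CPM in LNCaP with miR-375, against 45.9 and 40.1 CPM in control, 1.49-fold higher (log2 0.58 ± 0.05, adjusted p = 5.38e-11, edgeR). In PC3 it stood at 239.4 and 255.7 CPM with miR-375, against 174.1 and 170.8 CPM in control, 1.44-fold higher (log2 0.52 ± 0.05, adjusted p = 3.22e-12, edgeR). The groups did not overlap in either line.

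NLRC5 (chr16:56989485-57083531, plus strand), the transactivator of class I genes, was the lowest of the 9 per length in every group. It had 3.36 and 3.60 CPM in LNCaP with miR-375, against 2.21 and 2.09 CPM in control, 1.62-fold higher (log2 0.70 ± 0.24, adjusted p = 0.0257, edgeR). In PC3 it had 4.12 and 5.46 CPM with miR-375, against 2.57 and 2.96 CPM in control, 1.73-fold higher (log2 0.79 ± 0.23, adjusted p = 0.00414, edgeR). The groups did not overlap in either line. The LNCaP call was lost when any single LNCaP library was left out (adjusted p between 0.0518 and 0.0974), and the PC3 call without the second PC3 miR-375 library (log2 0.58, adjusted p = 0.101).

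**Figure D2:**
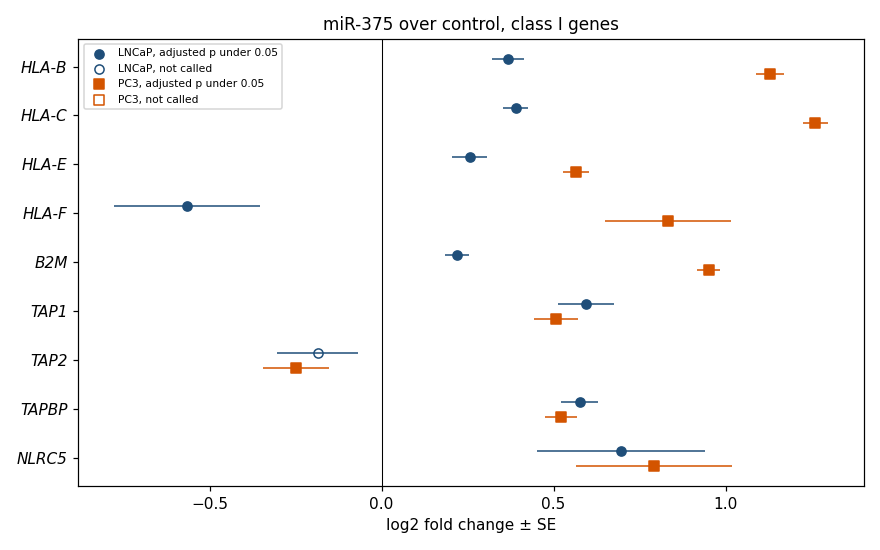
Log2 fold change of miR-375 over control (horizontal axis, bars ± SE) for the 9 genes in LNCaP (circles) and PC3 (squares), filled where the adjusted p was under 0.05. HLA-B, HLA-C, HLA-E and B2M lie farther right in PC3, TAP1, TAPBP and NLRC5 lie close together in the lines, and HLA-F has opposite signs.

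The change with miR-375 was then compared between the lines in the same model, as the LNCaP effect minus the PC3 effect, which uses the same libraries as both earlier comparisons. It was lower for 5 of the 9 genes, where 15.6% of all tested genes were lower, and 0 were higher, against 10.9% of genes. The difference was −0.87 ± 0.05 for HLA-C, −0.76 ± 0.06 for HLA-B and −0.73 ± 0.05 for B2M on the log2 scale (adjusted p = 6.06e-16, 3.53e-12 and 5.11e-15, edgeR). For HLA-E it was −0.31 ± 0.06 (adjusted p = 0.00024) and for HLA-F −1.40 ± 0.28 (adjusted p = 0.000163). Without the first LNCaP miR-375 library the HLA-E difference was −0.19 (adjusted p = 0.0412), still called. These 5 are the chains of the class I molecule itself. Of 15 tested partners of peptide loading and quality control, described below, 6 were lower and 2 higher in this comparison.

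The 4 genes of peptide transport, tapasin and transactivation were not called in this comparison. The difference was 0.09 ± 0.10 for TAP1 (adjusted p = 0.608), 0.06 ± 0.15 for TAP2 (adjusted p = 0.852), 0.05 ± 0.07 for TAPBP (adjusted p = 0.653) and −0.10 ± 0.34 for NLRC5 (adjusted p = 0.916, edgeR). A p above the threshold does not show that the effects were equal, and the SE was widest for NLRC5. Without the first LNCaP control library TAPBP was called, at 0.23 (adjusted p = 0.0223), and the sign of the NLRC5 difference turned when any of 4 single libraries was left out.

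In the controls, 7 of the 9 genes were lower in LNCaP than in PC3, where 39.2% of all tested genes were lower and 41.2% higher. The largest gap was that of HLA-E, at 34.1 and 34.2 CPM in LNCaP control, against 317.1 and 304.2 CPM in PC3 control, 9.11-fold lower in LNCaP (log2 −3.19 ± 0.05, adjusted p = 4.68e-37, edgeR). TAPBP was 4.01-fold lower (log2 −2.00 ± 0.05, adjusted p = 4.84e-29), and TAP1 and B2M had log2 differences of −1.89 ± 0.07 and −1.89 ± 0.03 (adjusted p = 4.08e-23 and 5.17e-34). TAP2 followed at −1.63 ± 0.11 (adjusted p = 1.64e-16), then HLA-B at −1.05 ± 0.05 (adjusted p = 5.1e-22) and HLA-C at −0.67 ± 0.04 (adjusted p = 1.05e-18, edgeR). HLA-F and NLRC5 were not called, at −0.27 ± 0.20 (adjusted p = 0.201) and −0.36 ± 0.25 (adjusted p = 0.177). The LNCaP control libraries of 8 genes were below both PC3 control libraries, beside 43.5% of all tested genes, and those of HLA-F overlapped.

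With miR-375 in LNCaP, none of these 7 genes reached its PC3 control level. B2M, for one, stood at 283.9 and 275.8 CPM in LNCaP with miR-375, against 892.4 and 883.9 CPM in PC3 control. As a ratio, the closest was HLA-C, with 230.1 and 221.4 CPM in LNCaP with miR-375, against 272.7 and 277.1 CPM in PC3 control.

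Per kilobase of annotated exon, the order of the genes differed between the lines. The length was the union of all annotated exons, 6079 bases for B2M and 2507 for HLA-C. With other transcript lengths the order could change. In LNCaP control HLA-C came first at 68.7 ± 2.54 CPM per kb, followed by B2M at 39.6 ± 1.44, HLA-B at 20.2 ± 0.85 and HLA-E at 11.5 ± 0.019 (SD, n = 2). In PC3 control B2M came first at 146.1 ± 0.99 CPM per kb, and HLA-C at 109.7 ± 1.24 and HLA-E at 104.4 ± 3.06 stood close behind, ahead of HLA-B at 42.0 ± 0.61. The HLA-C and HLA-E levels in PC3 control differed by less than 2 of the larger SDs. In both lines TAPBP, TAP1, TAP2, HLA-F and NLRC5 then followed in that order, from 8.50 ± 0.80 for TAPBP to 0.173 ± 0.007 for NLRC5 in LNCaP control, and from 34.1 ± 0.46 to 0.223 ± 0.022 in PC3 control.

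**Figure D3:**
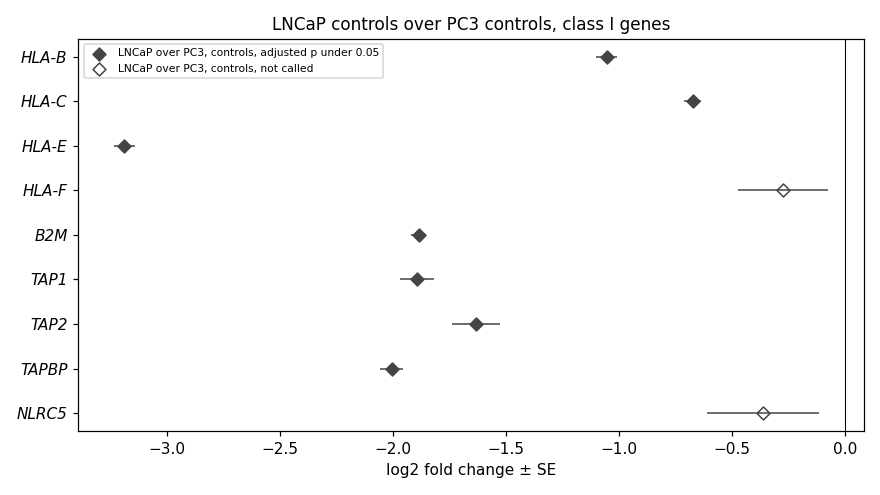
Log2 fold change of LNCaP control over PC3 control (horizontal axis, bars ± SE) for the 9 genes, filled where the adjusted p was under 0.05. All lie left of 0, HLA-E farthest at −3.19, and HLA-F and NLRC5 are the open symbols.

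The other steps of the pathway were read from fixed lists. Of 15 partners of peptide loading and quality control in the endoplasmic reticulum, 3 rose and 6 fell in LNCaP, and 7 rose and 5 fell in PC3, with medians of 0.05 in both lines. CALR, the calreticulin chaperone of the loading complex, rose to 1748 and 1755 CPM in PC3 with miR-375, against 1328 and 1336 CPM in control (log2 0.40 ± 0.03, adjusted p = 6.33e-14). In LNCaP its change was 0.14 ± 0.03 (adjusted p = 0.000147, edgeR). The LNCaP effect of CALR minus its PC3 effect was −0.25 ± 0.04 (adjusted p = 1.17e-05, edgeR). PDIA3, the ERp57 disulfide isomerase bound to tapasin, rose by 0.49 ± 0.03 in PC3 (adjusted p = 8.54e-16, edgeR). It was not called in LNCaP, at −0.06 ± 0.03 (adjusted p = 0.167), and its difference between the lines was −0.55 ± 0.04 (adjusted p = 2.78e-12, edgeR). HM13, the signal peptide peptidase that frees the peptides shown by HLA-E, rose by 0.43 ± 0.04 in PC3 (adjusted p = 2.69e-12, edgeR). In LNCaP HM13 changed by −0.13 ± 0.04 (adjusted p = 0.00806), a call lost in 8 of 16 other settings, and its LNCaP effect minus its PC3 effect was −0.55 ± 0.05 (adjusted p = 1.31e-10, edgeR).

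Members of the same list fell in both lines. DERL1, a channel protein of endoplasmic reticulum degradation, changed by −0.78 ± 0.05 in LNCaP and −0.62 ± 0.04 in PC3, and CANX, the calnexin chaperone of new heavy chains, by −0.31 ± 0.03 and −0.18 ± 0.03 (adjusted p from 3.39e-16 to 1.67e-05, edgeR). SSR1, a subunit of the translocon-associated complex, changed by −0.46 ± 0.04 in LNCaP (adjusted p = 1.52e-12). SUSD6, a membrane protein linked to class I turnover, rose by 0.27 ± 0.08 in LNCaP (adjusted p = 0.00544), a call lost in 2 of 16 other settings. In PC3 SUSD6 rose by 0.29 ± 0.08 (adjusted p = 0.0016, edgeR), called in all 16 other settings. TAPBPL, a tapasin relative, was called higher in PC3 at 0.70 ± 0.28 (adjusted p = 0.0423), a call lost in 12 of 16 other settings.

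ERAP1 and ERAP2, which trim peptides to fit class I grooves, were called in neither line with miR-375. Their levels were far apart between the lines, with ERAP2 at 0.810 ± 0.093 CPM in LNCaP control, against 46.7 ± 0.37 CPM in PC3 control.

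Of the immunoproteasome subunits and the PA28 activator, 5 genes in all, 1 rose and 0 fell in LNCaP, and 2 rose and 2 fell in PC3. PSMB9, the subunit that shares a promoter region with TAP1, had 2.06 and 1.44 CPM in LNCaP with miR-375, against 0.483 and 0.830 CPM in control (log2 1.40 ± 0.31, adjusted p = 0.000364). In PC3 it had 10.5 and 9.77 CPM with miR-375, against 6.31 and 7.50 CPM in control (log2 0.55 ± 0.18, adjusted p = 0.0121, edgeR), a call lost in 3 of 16 settings, namely with DESeq2 and without the first PC3 control or the first PC3 miR-375 library (highest adjusted p = 0.129). PSMB8 and PSMB10, the other subunits exchanged in the immunoproteasome, gave no called rise. PSMB8 had log2 differences of −0.80 ± 0.40 in LNCaP (adjusted p = 0.147) and 0.17 ± 0.15 in PC3 (adjusted p = 0.395), and PSMB10 had 0.17 ± 0.32 (adjusted p = 0.763) and −0.72 ± 0.29 (adjusted p = 0.0446), the last called value being lost in 8 of 16 other settings. The PA28 gene PSME1 rose by 0.17 ± 0.04 in PC3 (adjusted p = 0.0013) and PSME2 changed by −0.27 ± 0.05 (adjusted p = 6.88e-06). In LNCaP PSME1 and PSME2 stood at 0.07 ± 0.04 and −0.10 ± 0.05 and were not called. The 3 subunits of the standard proteasome, PSMB5, PSMB6 and PSMB7, had changes between −0.13 and 0.10 in both lines, and each of their 3 calls was lost under other settings.

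Of 20 tested regulators of class I genes, 4 rose and 9 fell in LNCaP, and 3 rose and 5 fell in PC3, with medians of −0.14 and −0.01. RFX5, RFXANK and RFXAP form the RFX complex, which NLRC5 needs to reach DNA. RFX5 changed by −0.25 ± 0.05 in LNCaP (adjusted p = 0.000211) and stood at 0.08 ± 0.06 in PC3 (adjusted p = 0.255). RFXANK changed by 0.22 ± 0.06 and 0.17 ± 0.06 (adjusted p = 0.006 and 0.0292), and RFXAP by −0.18 ± 0.14 and 0.14 ± 0.16, neither called. The RFX5 call was lost with library totals, and those of RFXANK without the second LNCaP control library and in 8 of 16 settings in PC3.

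IRF1, an interferon-induced activator of TAP1 and the heavy chains, had 5.91 and 6.31 CPM in LNCaP with miR-375, against 4.56 and 3.64 CPM in control (log2 0.58 ± 0.16, adjusted p = 0.00516). In PC3 it had 14.5 and 12.5 CPM with miR-375, against 15.6 and 13.9 CPM in control (log2 −0.13 ± 0.13, adjusted p = 0.47). The LNCaP call was lost without the second LNCaP control library (adjusted p = 0.078), and the IRF1 difference between the lines was 0.71 (adjusted p = 0.0098, edgeR).

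The fallen regulators included the Polycomb genes EZH2, SUZ12 and EED, whose complex is known to silence class I genes in other tumour cells. EZH2 changed by −0.71 ± 0.08 in LNCaP and −0.45 ± 0.08 in PC3 (adjusted p = 1.19e-08 and 1.86e-05), and SUZ12 by −0.70 ± 0.06 and −0.61 ± 0.06 (adjusted p = 9.64e-12 and 1.02e-10). EED changed by −0.58 ± 0.10 in PC3 (adjusted p = 9.91e-06) and by −0.25 ± 0.10 in LNCaP (adjusted p = 0.0428), the second being lost in 9 of 16 other settings. USF1, an E-box factor that binds class I core promoters, changed by −0.77 ± 0.06 and −0.99 ± 0.06 (adjusted p = 2.65e-12 and 8.9e-16, edgeR). Factors of the promoter elements named above moved both ways. In LNCaP NFYB (−0.31 ± 0.07), NFYC (−0.17 ± 0.06), CREB1 (−0.16 ± 0.05) and RELA (−0.12 ± 0.045) were called lower. NFKB2 (0.21 ± 0.06) and RELB (0.50 ± 0.14) were called higher there. In PC3 NFYC (−0.37 ± 0.06) was called lower, and NFYA (0.36 ± 0.05) and NFKB2 (0.14 ± 0.06) higher. The part of any regulator in the class I changes was not tested.

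Of 16 listed interferon receptor and JAK-STAT genes, which act upstream of the class I genes, 5 rose and 2 fell in LNCaP, and 6 rose and 5 fell in PC3, with medians of 0.10 and −0.09. IFNGR2, a chain of the interferon gamma receptor, rose in both lines, by 0.37 ± 0.06 in LNCaP (adjusted p = 9.38e-06) and 0.85 ± 0.05 in PC3 (adjusted p = 2.05e-16, edgeR). JAK2, a kinase of the interferon gamma receptor, changed by −0.77 ± 0.10 in PC3 (adjusted p = 6.53e-08), with 16.7 ± 0.87 CPM with miR-375 and 28.5 ± 1.4 CPM in control. JAK1, a kinase shared by the interferon receptors, was not called with miR-375 and had 3.58 and 3.99 CPM in LNCaP with miR-375, 3.69 and 4.38 CPM in LNCaP control, 148.8 and 151.3 CPM in PC3 with miR-375 and 151.5 and 146.3 CPM in PC3 control. STAT3 was the reverse, at 123.5 ± 7.0 CPM in LNCaP control with at most 0.0519 CPM in any PC3 library, and it rose by 0.46 ± 0.05 in LNCaP with miR-375 (adjusted p = 8.81e-09). The feedback inhibitor SOCS3 changed by −1.24 ± 0.24 in LNCaP (adjusted p = 7.58e-05, edgeR). Its level there was low, at 0.650 and 0.664 CPM with miR-375, against 1.69 and 1.43 CPM in control. In PC3 SOCS3 changed by −0.31 ± 0.06 (adjusted p = 0.000115, edgeR), from 83.7 ± 0.72 CPM in control to 67.4 ± 3.6 CPM. SOCS1 changed by −0.91 ± 0.20 in PC3 (adjusted p = 0.000196, edgeR). In LNCaP, where it was under 1 CPM, SOCS1 stood at 0.89 ± 0.39 and was not called (adjusted p = 0.0795, edgeR). Its LNCaP effect minus its PC3 effect was 1.80 ± 0.43 (adjusted p = 0.00152, edgeR). IFNAR1, a chain of the type I receptor, changed by −0.31 ± 0.05 in LNCaP and −0.28 ± 0.05 in PC3 (adjusted p = 8.47e-06 and 4.92e-06, edgeR). USP18, an interferon-induced inhibitor of the type I receptor, rose in both lines. Its change was 0.45 ± 0.14 in LNCaP (adjusted p = 0.00949, edgeR), a call lost without the second LNCaP control library. In PC3 it was 0.70 ± 0.13 (adjusted p = 2.19e-05, edgeR), called in all 16 other settings. IRF9, a DNA-binding subunit of the type I interferon response, rose by 0.91 ± 0.31 in PC3 (adjusted p = 0.0178, edgeR), a call lost in 3 of 16 settings.

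Of 8 interferon genes, IFNE was the only one above the filter, at 0.666 ± 0.27 CPM in PC3 with miR-375 and 1.01 ± 0.37 CPM in PC3 control, and it had 0 counts in LNCaP. IFNG and IFNK had 0 counts in all 8 libraries.

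**Figure D4:**
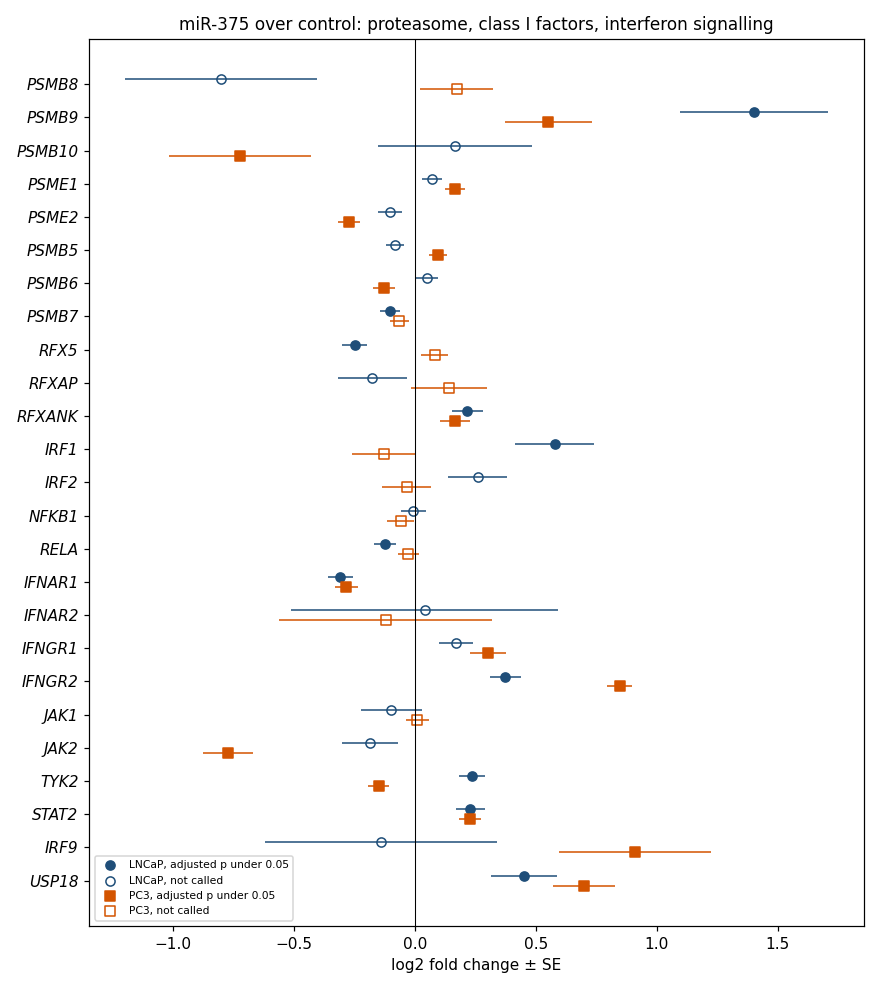
Log2 fold change of miR-375 over control (horizontal axis, bars ± SE) in LNCaP (circles) and PC3 (squares) for proteasome subunits, regulators of class I genes and interferon signalling genes, filled where the adjusted p was under 0.05. PSMB9 is called higher in both lines, and JAK2 lies at −0.77 in PC3.

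Among 16 tested genes listed for other MHC and class I-like proteins, 4 rose and 2 fell in LNCaP, and 10 rose and 1 fell in PC3, with medians of 0.26 and 0.50. MR1, which presents microbial vitamin B metabolites, rose by 1.16 ± 0.14 in LNCaP and 0.85 ± 0.12 in PC3 (adjusted p = 7.93e-09 and 1.53e-07), and FCGRT, the heavy chain of the neonatal Fc receptor, by 0.90 ± 0.17 and 0.65 ± 0.06 (adjusted p = 4.85e-05 and 7.45e-12). Both pair with B2M.

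Ligands of the natural killer receptor NKG2D moved in different directions. MICA rose by 0.85 ± 0.10 in PC3 (adjusted p = 6.45e-09), RAET1G by 1.17 ± 0.28 in PC3 (adjusted p = 0.000778) and by 0.88 ± 0.32 in LNCaP (adjusted p = 0.0316), the LNCaP call being lost in 3 of 16 settings. ULBP2 changed by −0.92 ± 0.15 in LNCaP (adjusted p = 2.83e-06) and by 0.34 ± 0.14 in PC3 (adjusted p = 0.0428), the PC3 call being lost in 11 of 16 settings. The LNCaP effect minus the PC3 effect of ULBP2 was −1.26 ± 0.20 (adjusted p = 4.82e-06, edgeR). ULBP3 changed by −0.55 ± 0.10 in PC3 (adjusted p = 2.74e-05, edgeR), the 1 gene of this list called lower there. AZGP1, a soluble class I-like protein, rose by 1.64 ± 0.22 in PC3 (adjusted p = 9.09e-08), and the class I pseudogene HLA-H by 0.86 ± 0.15 there (adjusted p = 7.29e-06).

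Of 9 tested MHC class II genes, 2 rose and 0 fell in LNCaP, and 3 rose and 0 fell in PC3. Of the 3 in PC3, HLA-DMB and HLA-DPA1 were near the floor. HLA-DMB had 0.321 ± 0.016 CPM in PC3 with miR-375 and 0.063 ± 0.016 CPM in control. HLA-DPA1 had 0.451 ± 0.17 and 0.126 ± 0.10 CPM, a call lost in 3 of 16 settings. HLA-DMA, an editor of class II peptides, stood at 5.07 and 6.62 CPM in PC3 with miR-375, against 1.35 and 1.66 CPM in control (log2 1.96 ± 0.20, adjusted p = 1.75e-10), and HLA-DQB1 rose by 0.45 ± 0.11 in LNCaP (adjusted p = 0.00195, edgeR). HLA-DPA1 was called higher in LNCaP at 1.15 ± 0.41 (adjusted p = 0.0264), lost in 4 of 16 settings. Class II genes are usually expressed by antigen-presenting leukocytes, and PTPRC, the pan-leukocyte gene, was at no more than 0.259 CPM in any library. The leukocyte markers summed higher with miR-375 in both lines, as given above, and their part in these changes was not tested.

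Of 9 tested checkpoint ligands and class I receptors, 4 rose and 1 fell in LNCaP, and 3 rose and 2 fell in PC3. Among those that rose, VTCN1 in LNCaP was near the floor, with 4 and 7 counts with miR-375, against 0 and 0 in control. LGALS9 in PC3 was also low, with 48 and 42 counts with miR-375, against 2 and 6 in control. CD274, which encodes the T cell inhibitor PD-L1 and is itself induced by interferon, had 6.83 and 7.85 CPM in PC3 with miR-375, against 12.4 and 14.6 CPM in control (log2 −0.88 ± 0.16, adjusted p = 2.01e-05), while B2M and the heavy chains rose there. PDCD1LG2, encoding PD-L2, changed by −1.76 ± 0.35 in PC3 (adjusted p = 8.65e-05). CD47, a signal against phagocytosis, rose by 0.66 ± 0.05 in LNCaP (adjusted p = 8.59e-14), and NECTIN2, a ligand of natural killer receptors, by 0.48 ± 0.05 in LNCaP and 0.33 ± 0.05 in PC3 (adjusted p = 2.21e-10 and 1.34e-07, edgeR). CD276, encoding B7-H3, rose by 0.24 ± 0.04 and 0.37 ± 0.04 (adjusted p = 4.05e-06 and 8.93e-10), and PVR changed by −0.17 ± 0.06 in LNCaP (adjusted p = 0.0182), a call lost in 8 of 16 settings.

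The genes nearest in profile were sought by Euclidean distance between log2(CPM + 0.5) values centred on each gene's mean over the 8 libraries, among genes with a mean of at least 5 CPM. Among the 3 nearest to B2M were the interferon-induced membrane protein gene IFITM3 at a distance of 0.169 and VASH1 at 0.180. Nearest to HLA-B were KCNIP3 (0.204), the histone gene H2BC12 (0.210) and DPYSL4 (0.236). TAP1 was nearest to PSMG3-AS1 (0.113), TMEM263 (0.178) and PRKAB2 (0.192), and NLRC5 to ADCY9 (0.257), ZKSCAN2 (0.262) and AC020915.3 (0.280). None of the neighbours named was one of the 9 genes. The 8 libraries are of 2 lines, so a distance takes in differences between the lines as well as those with miR-375.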

How the data were processed

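RNA-seq was measured in 8 libraries of LNCaP and PC3 cells, grouped by their titles. Per the labels' protocols, poly(A) RNA was made into dUTP-marked libraries and read in pairs. The authors deposited whole-number read counts per gene in 1 table, without any normalization. The tools named per the submitters' processing notes are STAR 2.7.1a, fastp, DESeq2 and featureCounts, and the build is hg38. No source used here states the annotation, the strand setting or whether mates were counted singly. From 68.1% to 70.3% of counts between 1 and 20 were even, so counts halved and rounded up were tried. Of 60625 gene lines, 3 were broken (279 counts) and left out. Exon lengths, spans and overlaps come from GENCODE 29, which holds 58515 of the gene IDs.

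Library sizes were scaled by TMM (factors 0.957 to 1.06), genes were filtered with filterByExpr, and a model of 4 groups was fitted with glmQLFit and glmQLFTest (edgeR 4.0.16, limma 3.58.1, R 4.3.3). DESeq2 1.42.0 was used as an alternative test. The steps were tested on simulated counts. An SE is the log2 change divided by the square root of F. Library totals limit precision, and the upper limit for 0 counts, 3 counts, covers counting error only. Replicates differed by more than sampling noise (chi-square per degree of freedom 3.52 to 3.74) and none was treated as a duplicate.

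The members and lists were chosen with earlier results of these data known, so a list's direction is no independent evidence. Named from each list were up to 4 called genes per line with the largest change at a mean of 1 CPM or more in the line, all proteasome genes listed, RFX5, RFXAP, RFXANK, IRF1, and the 3 nearest genes in profile of 4 members. CALR, ERAP1, ERAP2, JAK1, IFNE, PTPRC, ULBP3 and HLA-DMB, and some genes in the line where the rule did not name them, were added after their values were seen. So were IFNAR1, NFYA, NFYB, NFYC, CREB1, RELA, NFKB2, RELB, VTCN1 and LGALS9, and the markers FOLH1, CXCL8 and IL6. Some results are not reported here.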

Additional observations from a re-analysis of the deposited data

Results flagged for a closer look

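For 5 of the 9 genes the change with miR-375 differed between the lines by a test of the difference itself (LNCaP effect minus PC3 effect, edgeR interaction). The log2 difference was −0.76 for HLA-B (adjusted p = 3.53e-12), −0.87 for HLA-C (adjusted p = 6.06e-16), −0.31 for HLA-E (adjusted p = 0.00024), −1.40 for HLA-F (adjusted p = 0.000163) and −0.73 for B2M (adjusted p = 5.11e-15). HLA-B, HLA-C, HLA-E and B2M rose in both lines, and the rise was larger in PC3. Without the first LNCaP miR-375 library the HLA-E difference was −0.19 (adjusted p = 0.0412). HLA-F had 94 and 94 counts in LNCaP with miR-375, against 139 and 120 in LNCaP control, and its LNCaP call did not hold under all settings. Line and serum share cannot be told apart in these differences.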

How the results depend on the processing

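Over the 16 other settings in each line, the number of the 9 genes called ranged from 6 to 8 in LNCaP and from 7 to 9 in PC3. Over 15 settings it ranged from 5 to 6 for the difference between lines and was 7 throughout for the controls. With the replicate number as a block, 8, 9, 5 and 7 genes were called, as without it. Deviations of same-numbered libraries correlated between −0.027 and 0.0139, so the numbers are not taken to pair the samples. The HLA-F change in LNCaP was not called with library totals (−0.44), DESeq2 size factors (−0.53), the DESeq2 test (adjusted p = 0.104), limma-voom (adjusted p = 0.0813), no filter (adjusted p = 0.101), or without 1 of 3 LNCaP libraries (−0.53 to −0.37). TAP2 in PC3 was not called with library totals (−0.17, adjusted p = 0.149) or DESeq2 (adjusted p = 0.0605). The NLRC5 difference between lines ran from −0.29 to 0.12 as single libraries were left out.

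With library totals, signs turned for PSMB5 (0.0391), PSMB7 (0.0194) and PSME2 (0.0213) in LNCaP and for PSMB7 (0.0129) in PC3. With single libraries left out, PSMB8 ran from −1.50 to 0.11 and PSMB10 from −0.0137 to 0.48 in LNCaP. The cause was not tested. Other pathway genes had 541 of 616 results unchanged in call and sign when 1 library was left out.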
